A study of Mus musculus with 24 samples.

Results

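Skeletal muscle contracts through sarcomeres, and 9 genes for the giant filaments, the M-band crosslinkers and their binding partners are described here across differentiation and oxygen in C2C12 cells. They were taken by symbol from the deposited gene table and are the genes for titin (Ttn), nebulin (Neb), myomesin 1 (Myom1), myomesin 2 or M-protein (Myom2), myosin binding protein C slow type (Mybpc1) and fast type (Mybpc2), myosin binding protein H (Mybph), telethonin (Tcap) and xin (Xirp1). All 9 symbols were found among the 24043 rows of the table. C2C12 is an established mouse myoblast line that fuses into myotubes when serum is lowered. The 4 RNA-seq groups are cells in growth medium (10% fetal bovine serum) or in differentiation medium (2% horse serum plus ITS, a supplement of insulin, transferrin and selenium), each kept at 21% oxygen (normoxia) or 2% oxygen (hypoxia). Each group has a replicate A and a replicate B that the design text calls biological replicates. All groups are the same line grown as a culture, with no transgene or knockout named in the labels, and the number of days in differentiation medium is not given in the sources used here. The design asks how oxygen alters the response of myoblasts to differentiation medium.

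Titin runs from the Z-disc to the M-band, anchors the thick filament and acts as a molecular spring, and nebulin lies along the thin filament. Myomesins crosslink thick filaments at the M-band, myosin binding proteins attach to the thick filament, and telethonin links the ends of titin molecules at the Z-disc. Xin binds actin filaments and associates with forming myofibrils and sites of muscle remodelling. In muscle these genes are switched on as myoblasts leave the cell cycle and assemble myofibrils, and muscle regulatory factors of the MyoD family, which bind E-boxes, and MEF2 factors are the known activators of many such genes.

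The upstream sequences of 4 members are shown as background, because MyoD family factors are known to bind E-boxes. No link between these sequences and the values was tested. RefSeq's promoter table (build GRCm38.p6) held 5 of the 9 members. The stretch for Myom1 lies inside the gene and is not printed, and for the others bases inside the gene's annotated RefSeq span were left out, so each stretch ends where that span begins. Each is written 5′ to 3′ along the gene's strand, and capitals mark matches to the E-box CANNTG. Ttn is taken from chr2:76982558-76982797 (minus strand), Mybpc1 from chr10:88605230-88605402 (minus), Mybpc2 from chr7:44524716-44524919 (minus) and Mybph from chr1:134193198-134193417 (plus).
Ttn: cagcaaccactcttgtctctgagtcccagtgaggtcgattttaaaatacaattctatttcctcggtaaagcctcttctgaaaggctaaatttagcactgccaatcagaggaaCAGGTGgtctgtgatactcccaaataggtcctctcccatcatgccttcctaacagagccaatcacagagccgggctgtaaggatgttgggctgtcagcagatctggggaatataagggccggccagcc
Mybpc1: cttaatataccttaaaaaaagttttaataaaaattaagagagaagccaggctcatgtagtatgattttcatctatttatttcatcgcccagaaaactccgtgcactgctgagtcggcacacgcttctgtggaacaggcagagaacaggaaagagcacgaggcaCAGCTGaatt
Mybpc2: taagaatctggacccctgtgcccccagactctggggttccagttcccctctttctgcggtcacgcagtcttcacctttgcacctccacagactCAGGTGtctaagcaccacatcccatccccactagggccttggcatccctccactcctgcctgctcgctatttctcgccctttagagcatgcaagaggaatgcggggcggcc
Mybph: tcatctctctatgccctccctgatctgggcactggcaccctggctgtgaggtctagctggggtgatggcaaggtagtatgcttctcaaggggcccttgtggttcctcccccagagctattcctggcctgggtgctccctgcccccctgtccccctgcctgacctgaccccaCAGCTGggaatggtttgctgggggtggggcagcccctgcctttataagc

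Both strands of the 250 bases before each start in RefSeq's promoter table were searched for the E-box CANNTG and for its form CAGCTG. Another form that reads CAGGTG on 1 of the strands was also searched for, as was the MCAT element, which reads CATTCC on 1 of the strands. The MEF2 motif and the CArG box were searched for by name. These starts lie inside the gene's RefSeq span by 10 bases for Ttn, 77 for Mybpc1, 46 for Mybpc2 and 30 for Mybph. Positions therefore count these unprinted bases. All 5 members in the table had an E-box, as did 66.2% of the 32851 promoters of the table, and the members' share is read against that background. Mybpc1 and Mybph held CAGCTG, a form present in 13.0% of all promoters, and Ttn and Mybpc2 held CAGGTG, present on either strand in 17.2%. In Mybph the CAGCTG begins at position -79 relative to the start in the promoter table. It is followed directly by an MCAT element at -73, and the 2 matches do not overlap. Mybpc2 also held an MCAT element, at -62, and 12.6% of promoters hold one. Ttn held a MEF2 motif (2.92% of promoters) at -166, and Myom1 a CArG box (1.47%) at -99 and 3 E-boxes of other forms. A match describes the letters and does not show that a factor binds there.

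Values are FPKM, fragments per kilobase of transcript scaled to the mapped fragments of the library. Levels of genes of different length are set side by side on this scale. Such comparisons rest on the transcript lengths used upstream, which are not in the sources used here. Between 14917 and 15672 genes were above 0 in a library. Low values step in units of 1 fragment, and these steps put relative depth between 0.633 and 1, the extremes being replicates B and A of differentiation medium at 2% oxygen. A value listed at 0 allows up to 3 fragments, which on a transcript of 1 kb is 0.166 to 0.262 FPKM depending on the library (counting error only) and less on longer transcripts. The myoblast markers Myod1, Myf5, Des, Cdh15 and Chrna1 were above 5 FPKM in every library, while Msc stayed at or below 1.13 FPKM. Among markers of other cell types, the 4 endothelial genes summed to at most 0.52 FPKM, the 3 blood cell genes in the table to at most 0.181 and the 5 adipocyte genes to at most 1.18, with Plin1, Cidec and Lep at 0 in every library. The 5 cardiomyocyte genes summed to at most 2.89 FPKM, with Nppa at 0. Of the smooth muscle list, which shares Des with muscle, Myh11 stayed under 0.1 FPKM, while Actg2 was at 3.58 to 31.3 FPKM and Smtn at 22.2 to 90.6 FPKM, and the list summed to 95.7 to 513.5 FPKM. Smtn was 38.8 and 36.5 FPKM in growth medium at 21% oxygen and 85.5 and 90.6 FPKM at 2% oxygen, and its part in the results on oxygen was not tested. The hypoxic differentiation libraries differed from each other in cell cycle genes, and all 20 of a cell cycle list were higher in replicate B (summed 784 FPKM) than in replicate A (206.2 FPKM).

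**Figure D1:**
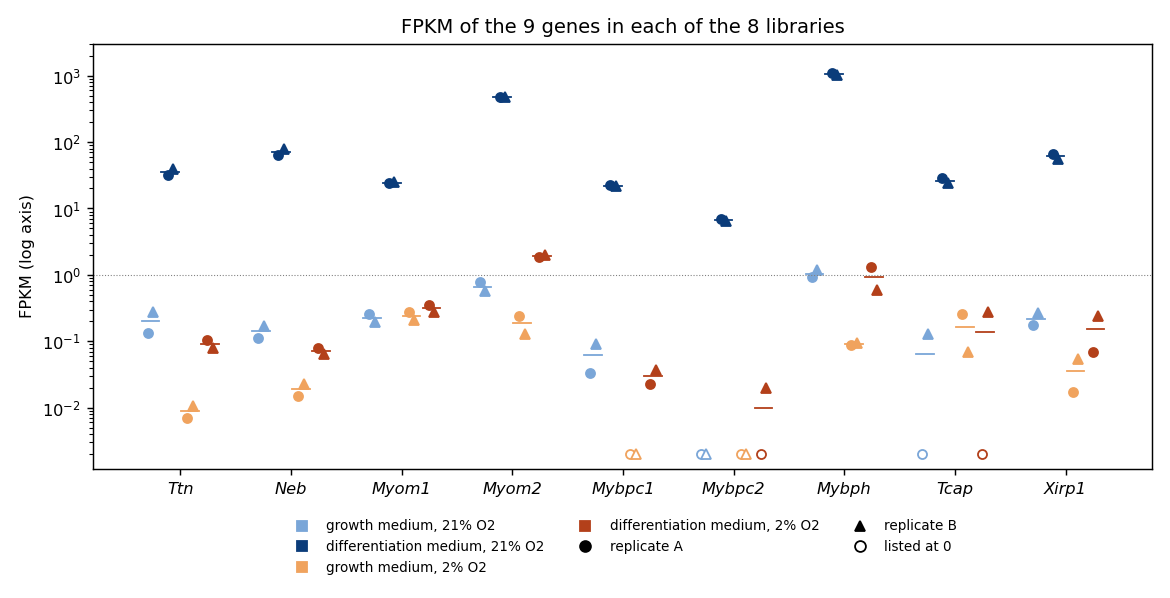
FPKM on a log axis for each of the 9 genes in the 8 RNA-seq libraries, coloured by group, with circles for replicate A, triangles for replicate B, bars for group means and open symbols for values listed at 0. The normoxic differentiation libraries lie between 6.59 and 1101 FPKM, and no other library reaches 2 FPKM for any of the genes.

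In differentiation medium at 21% oxygen all 9 genes were expressed above 6 FPKM, and in the other 3 groups all 9 stayed under 2 FPKM. The 9 genes summed to 1820 and 1750 FPKM in the normoxic differentiation libraries. Their sum was 2.4 and 2.87 FPKM in growth medium at 21% oxygen. At 2% oxygen it was 0.911 and 0.592 FPKM in growth medium, against 3.78 and 3.56 FPKM after the change of medium. The lowest value of any member in normoxic differentiation medium (Mybpc2, 6.59 FPKM) was above the highest value of any member elsewhere (Myom2, 1.98 FPKM in hypoxic differentiation medium). In a culture of dividing and fused cells, fewer cells that express a gene and less RNA per cell cannot be told apart.

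Levels within the group spanned more than 2 orders of magnitude on the FPKM scale. Mybph stood first at 1059 ± 58.5 FPKM (SD, n = 2 here and below), rank 63 among all genes of the group, and Myom2 second at 478.1 ± 3.93 FPKM, rank 153. Neb (70.9 ± 9.67) and Xirp1 (60.9 ± 6.67) followed, and their libraries overlapped, so their order is not separated from the spread. Ttn came next at 36 ± 5.16 FPKM. Tcap (26.2 ± 3.06) and Myom1 (24.4 ± 0.591) overlapped each other, and Mybpc1 (22.1 ± 0.231) lay just under both. Mybpc2, the fast type, was the lowest at 6.75 ± 0.234 FPKM. The slow type exceeded the fast type 3.23-fold in replicate A and 3.34-fold in replicate B. Myom2 exceeded Myom1 19.8-fold and 19.3-fold in the same libraries.

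The first comparison sets differentiation medium against growth medium at 21% oxygen. All 9 genes rose, in a table where 25.5% of the 12389 tested genes were called higher and 41% lower (limma, adjusted p under 0.05). This count is a description, because 7 of the 9 genes passed the filter of 1 FPKM only through normoxic differentiation medium and so had to differ. Mybph and Myom2 also reached it in another group. Both normoxic differentiation libraries were above both growth libraries for all 9 members and for 34.1% of tested genes. Higher genes were 38.4% of all calls, and 53.6% when libraries were rescaled by the median of ratios, which moved the all-gene median from -0.20 to 0.03. The median fitted change of the members was 4.94 on the log2(FPKM + 1) scale, against -0.20 for all tested genes.

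The giant filament genes showed the following values. Ttn was 0.131 and 0.273 FPKM in normoxic growth medium (replicates A and B) and reached 32.4 and 39.7 FPKM once differentiated at that oxygen level, a ratio of means of 178. Its fitted change was 4.94 ± 0.13 (SE, limma adjusted p 4.56e-07). Neb was 0.114 and 0.17 FPKM before and 64 and 77.7 FPKM after, a ratio of 499.9 and a fitted change of 5.97 ± 0.12 (adjusted p 2.11e-07). The libraries of the 2 media lay far apart for both genes. Neb was 1.98 and 1.96 times Ttn in normoxic differentiation medium, whereas in normoxic growth medium it was 0.869 and 0.62 times Ttn.

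At the M-band, Myom1 was 0.255 and 0.196 FPKM in growth medium and 24 and 24.9 FPKM in differentiation medium, a ratio of 108 (fitted change 4.38 ± 0.09, adjusted p 2.9e-07). Myom2 was 0.77 and 0.564 FPKM and then 475.3 and 480.9 FPKM, a ratio of 716 (8.17 ± 0.11, adjusted p 1.82e-07). The 2 myomesin genes therefore started within 3.02-fold of each other and ended about 19-fold apart in both replicates.

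Of the myosin binding proteins, Mybph rose from 0.917 and 1.18 FPKM to 1101 and 1018 FPKM, a ratio of 1011 and the largest fitted change of the 9 genes (9.02 ± 0.18, adjusted p 2.11e-07). Mybpc1 was 0.0333 and 0.0901 FPKM in growth medium and 22.3 and 22 FPKM in differentiation medium (4.45 ± 0.09, adjusted p 2.11e-07). Mybpc2 was listed at 0 in both growth medium libraries and at 6.92 and 6.59 FPKM after differentiation (2.95 ± 0.08, adjusted p 6.81e-07), so no ratio is given. On the log2(FPKM + 1) scale the change of a gene that starts at 0 is set by its level after differentiation, so fitted changes of members are not ranked as folds.

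The genes for the binding partners xin and telethonin also rose. Xirp1 was 0.176 and 0.263 FPKM in growth medium and 65.6 and 56.1 FPKM in differentiation medium, a ratio of 277 (5.66 ± 0.13, adjusted p 3.03e-07). Tcap was listed at 0 in replicate A and at 0.129 FPKM in replicate B of growth medium, and at 28.3 and 24 FPKM after differentiation (4.67 ± 0.16, adjusted p 1.92e-06). The low Tcap values are whole multiples of 1 step after correction for depth, which corresponds to a length of 0.951 kb. They then stand for 0 and 2 fragments in growth medium at 21% oxygen, 4 and 1 in growth medium at 2% oxygen, and 0 and 3 in differentiation medium at 2% oxygen (A and B of each). On that reading 687 fragments in normoxic differentiation medium stand against 2 in normoxic growth medium, a ratio per depth of 356 with an exact 95% interval of 98.1 to 2940 that covers counting error only.

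**Figure D2:**
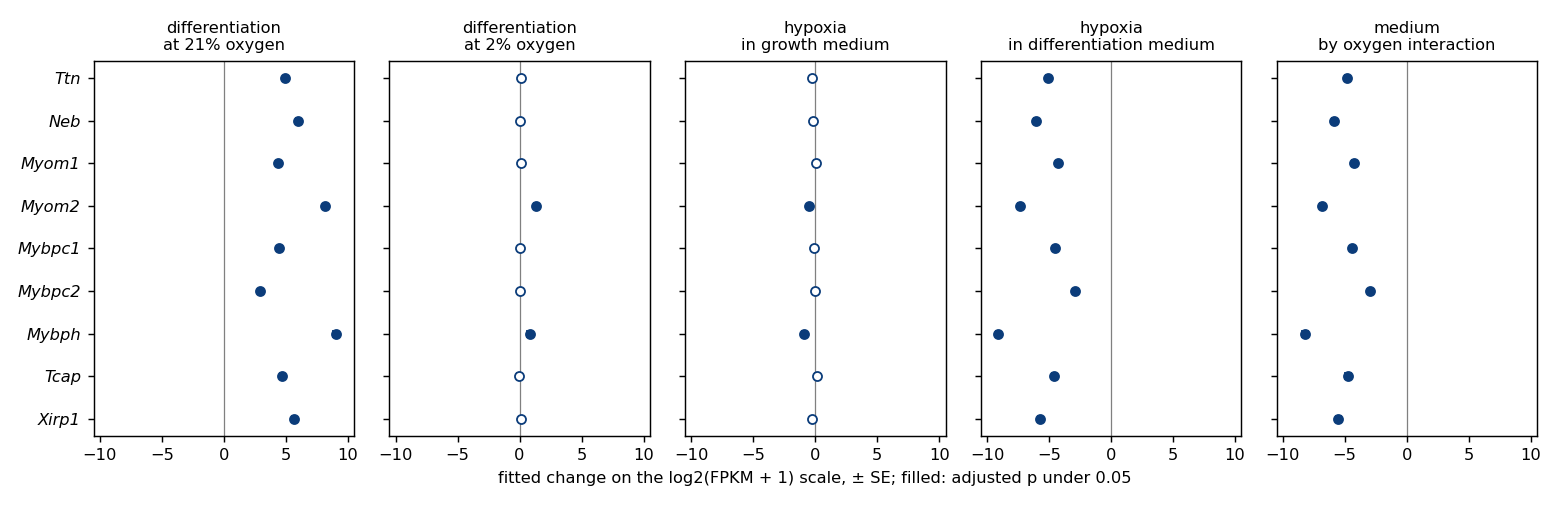
Fitted change of each gene on the log2(FPKM + 1) scale with its standard error (often smaller than the symbol), one panel per comparison, filled where the limma adjusted p was under 0.05. All 9 genes are filled for differentiation at 21% oxygen, hypoxia in differentiation medium and the interaction, and only Myom2 and Mybph are filled in the other 2 panels.

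The same change of medium at 2% oxygen gave a far smaller response. Myom2 and Mybph rose, 2 of the 9 members, in a table where 23.3% of all tested genes were called higher and 17.6% lower. The call of lower was made for 0 members by limma, and for 0 at an unadjusted p under 0.05. The median fitted change of the 9 genes was 0.08, against 0.07 for all tested genes. The 7 genes that passed the filter only through normoxic differentiation medium were bound to average under 1 FPKM in both hypoxic groups. With a pseudocount of 1 FPKM their fitted changes were held small. Neither the count nor the median is therefore read as likeness to the background.

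Myom2 was 0.244 and 0.129 FPKM in hypoxic growth medium and 1.85 and 1.98 FPKM in hypoxic differentiation medium, a ratio of means of 10.2 (fitted change 1.30 ± 0.11, limma adjusted p 0.000493). Both differentiation libraries were above both growth libraries, and the change stayed at 1.27 on leaving out replicate B of the differentiation libraries and at 1.33 on leaving out replicate A. Mybph was 0.0894 and 0.0947 FPKM in growth medium and 1.3 and 0.587 FPKM in differentiation medium, a ratio of 10.2 (0.81 ± 0.18, adjusted p 0.0133). The Mybph call did not hold in a fit of the 4 hypoxic libraries alone (adjusted p 0.0636) or when either hypoxic growth library was left out (adjusted p 0.0698 without A and 0.0699 without B), while its change became 1.07 on leaving out differentiation replicate B and 0.54 on leaving out replicate A.

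The other 7 genes did not pass the threshold at 2% oxygen. Ttn was 0.0071 and 0.0106 FPKM in growth medium and 0.104 and 0.0799 FPKM in differentiation medium, so its libraries did not overlap and the ratio of means was 10.4, with a fitted change of 0.11 ± 0.13 (adjusted p 0.507). Neb was 0.0152 and 0.023 FPKM and then 0.0791 and 0.0641 FPKM, a ratio of 3.75 (0.07 ± 0.12, adjusted p 0.661). A pseudocount of 1 FPKM compresses differences at this level. With a pseudocount of 0.01, chosen after the values were seen, Ttn changed by 2.43 (limma adjusted p 0.00612), Neb by 1.5 (adjusted p 0.0178) and Mybpc1 by 1.97 (adjusted p 0.0328). In that fit 5 of the 9 genes were called higher. The share of all tested genes called in it is not given here, so the 5 are not read against a background.

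Myom1 moved little, from 0.277 and 0.21 FPKM to 0.353 and 0.28 FPKM (0.08 ± 0.09, adjusted p 0.525). Xirp1 was 0.0172 and 0.0545 FPKM and then 0.0687 and 0.241 FPKM (0.15 ± 0.13, adjusted p 0.372). Mybpc1 was listed at 0 in both growth libraries and at 0.0231 and 0.0365 FPKM in the differentiation libraries (0.04 ± 0.09, adjusted p 0.734). Both differentiation libraries were above both growth libraries for 7 of the 9 genes, the exceptions being Mybpc2 and Tcap, where 40% of all tested genes did the same. Mybpc2 was listed at 0 except for 0.0199 FPKM in replicate B of hypoxic differentiation medium. Tcap was 0.261 and 0.0691 FPKM in hypoxic growth medium and 0 and 0.275 FPKM in hypoxic differentiation medium (-0.04 ± 0.16, adjusted p 0.875), with the groups overlapping. Cell cycle genes differed between the 2 hypoxic differentiation libraries (Mki67 at 3.46 and 23.6 FPKM), 5 of the 9 members were higher in replicate B than in A, and the part of the cell cycle difference in these values was not tested.

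Oxygen was then compared within growth medium, before differentiation. Myom2 and Mybph fell and 0 members rose (limma, and 0 at an unadjusted p under 0.05). Of all tested genes 28% were called lower and 13.5% higher in hypoxia. The calls among all genes split differently under other scalings, with higher genes at 32.6% of calls on the values as given, 43.4% when rescaled by the median of ratios and 49.3% by the upper quartile, which moved the all-gene median from -0.14 to 0. The median fitted change of the 9 genes was -0.16, against -0.14 for all tested genes. The 7 genes that passed the filter only through normoxic differentiation medium were bound to average under 1 FPKM in both growth groups. With a pseudocount of 1 FPKM their fitted changes were again held small. Neither the count nor the median is therefore read as likeness to the background.

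Mybph, at 0.917 and 1.18 FPKM in normoxia, was 0.0894 and 0.0947 FPKM in hypoxia, so normoxia was 11.4-fold higher (fitted change -0.90 ± 0.18, limma adjusted p 0.00783). Myom2 was 0.77 and 0.564 FPKM in normoxia and 0.244 and 0.129 FPKM in hypoxia, 3.57-fold higher in normoxia (-0.49 ± 0.11, adjusted p 0.0116). This call was lost without replicate A of normoxic growth medium (adjusted p 0.0534) and without replicate B of hypoxic growth medium (adjusted p 0.0797).

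Ttn had the widest ratio between the growth media among the 7 genes that were not listed at 0 throughout hypoxic growth medium, 22.8-fold higher in normoxia (0.131 and 0.273 against 0.0071 and 0.0106 FPKM), but at these levels the fitted change was -0.25 ± 0.13 (adjusted p 0.155). Neb was 7.43-fold higher in normoxia (-0.16 ± 0.12, adjusted p 0.304) and Xirp1 6.13-fold higher (-0.23 ± 0.13, adjusted p 0.18). With a pseudocount of 0.1 these 3 genes passed the threshold as well. Their changes were -1.43 for Ttn (limma adjusted p 0.00788), -1.01 for Neb (adjusted p 0.0123) and -1.24 for Xirp1 (adjusted p 0.0352). They also passed in a fit of the 4 growth medium libraries alone (limma adjusted p 0.0407, 0.0304 and 0.024). The share of all tested genes called in these fits is not given here. Mybpc1 was 0.0333 and 0.0901 FPKM in normoxia and listed at 0 in both hypoxic libraries (-0.09 ± 0.09, adjusted p 0.462).

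Myom1 did not pass, and whether its change differed from that of Myom2 was not tested. It was 0.255 and 0.196 FPKM in normoxia and 0.277 and 0.21 FPKM in hypoxia, with overlapping libraries (0.02 ± 0.09, adjusted p 0.883). Tcap was 0 and 0.129 FPKM in normoxia and 0.261 and 0.0691 FPKM in hypoxia (0.13 ± 0.16, adjusted p 0.572), and Mybpc2 was listed at 0 in all 4 growth medium libraries. In all, both hypoxic libraries lay below both normoxic ones for 6 of the 9 genes (Ttn, Neb, Myom2, Mybpc1, Mybph and Xirp1) and for 50.0% of all tested genes. The 6 myoblast markers, Myod1 among them, also moved with oxygen. They summed to 536.3 and 453.9 FPKM in growth medium at 21% oxygen and to 125.6 and 130.1 FPKM at 2% oxygen, and to 951.1 and 939.5 against 84.2 and 123.9 FPKM in differentiation medium. Their part in the values of the 9 genes was not tested.

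**Figure D3:**
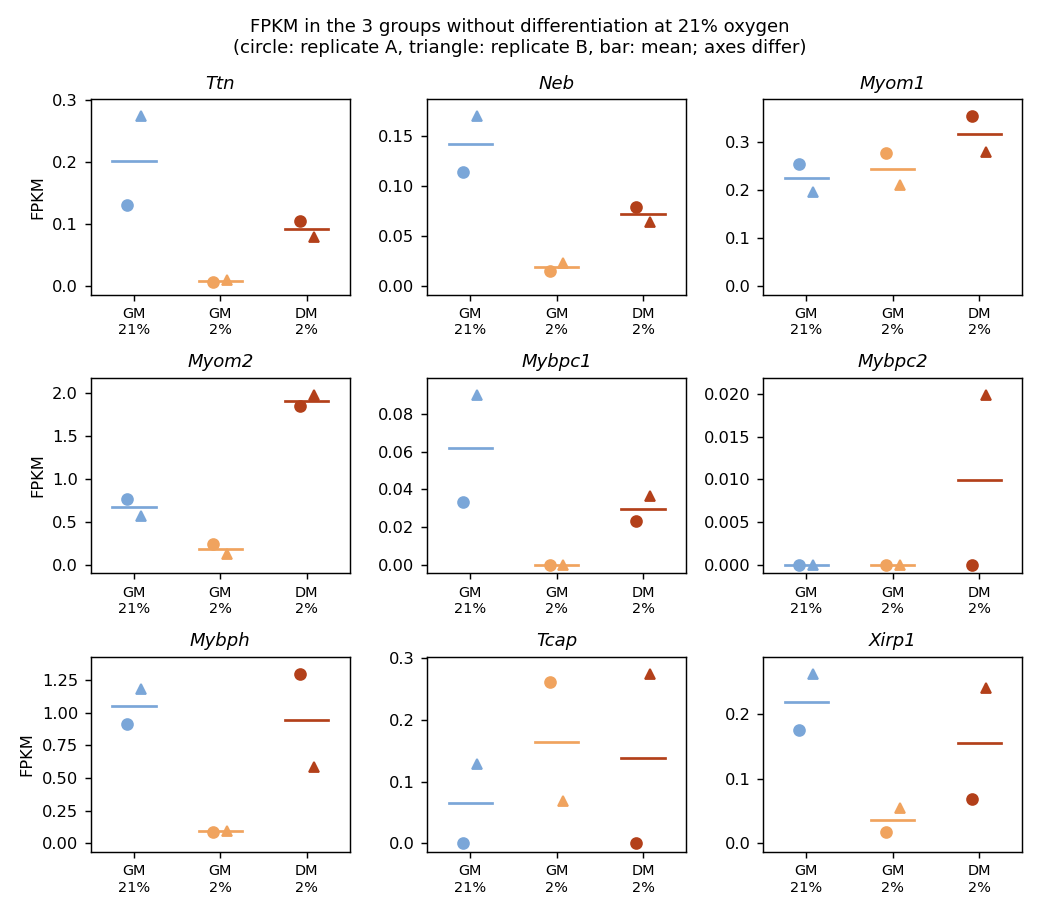
FPKM on linear axes, one panel per gene with its own scale, in growth medium at 21% oxygen, growth medium at 2% oxygen and differentiation medium at 2% oxygen (GM and DM, circles for replicate A, triangles for replicate B, bars for means). Ttn, Neb, Myom2, Mybpc1, Mybph and Xirp1 are lowest in hypoxic growth medium. Myom2 is highest in hypoxic differentiation medium at 1.85 and 1.98 FPKM, and Tcap and Mybpc2 show no group apart from the others.

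Within differentiation medium all 9 genes fell with hypoxia, where 27.7% of all tested genes were called lower and 37.5% higher. Of all calls, 57.5% were higher in hypoxia, or 46.5% when rescaled by the median of ratios. Both hypoxic libraries were below both normoxic ones for all 9 members and for 35.1% of tested genes. The 7 genes that passed the filter only through normoxic differentiation medium had to be lower here, so the count is a description. The comparison shares the normoxic differentiation libraries with the first one, so its size is not a separate observation, and the values of the libraries themselves are those given above. The median fitted change was -5.08 for the 9 genes and 0.15 for all tested genes.

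Mybph was 1123-fold higher in normoxia than in hypoxia (fitted change -9.12 ± 0.18, limma adjusted p 1.74e-07) and Neb 990-fold (-6.06 ± 0.12, adjusted p 1.65e-07). Ttn was 392-fold higher in normoxia (-5.08 ± 0.13, adjusted p 3.68e-07) and Xirp1 also 392-fold (-5.74 ± 0.13, adjusted p 2.58e-07). Myom2 was 249.9-fold higher (-7.36 ± 0.11, adjusted p 1.4e-07), and Myom1 had the lowest ratio at 77.2-fold (-4.27 ± 0.09, adjusted p 2.58e-07). Tcap, with 687 against 3 fragments on the reading above, had a ratio per depth of 243 with an exact 95% interval of 82.8 to 1180 (-4.58 ± 0.16, adjusted p 1.88e-06). Mybpc1 (-4.49 ± 0.09, adjusted p 1.65e-07) and Mybpc2 (-2.94 ± 0.08, adjusted p 6.41e-07) fell to 0.0231 and 0.0365 FPKM and to 0 and 0.0199 FPKM. Leaving out either hypoxic differentiation library kept all 9 calls.

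Hypoxic differentiation medium and normoxic growth medium differ in both factors, and their values are set side by side without a test. Myom2 was 2.87-fold and Myom1 1.4-fold higher in hypoxic differentiation medium, with no overlap of libraries. Ttn and Neb were lower there, at 0.455 and 0.505 times the normoxic growth level, again with no overlap. Mybph, Xirp1, Mybpc1, Tcap and Mybpc2 overlapped between these groups. Of all tested genes 31.0% were above and 38.3% below without overlap. The ratio of Myom2 to Myom1 took different values in the 4 groups. At 21% oxygen it was 3.02 and 2.87 in growth medium and 19.8 and 19.3 in differentiation medium (A and B of each). At 2% oxygen it was 0.882 and 0.616 in growth medium and 5.23 and 7.07 in differentiation medium.

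The interaction, which is the change on differentiation at 2% oxygen minus that at 21% oxygen, was negative past the threshold for all 9 genes, and for 18.7% of all tested genes, with 35.4% positive. Nothing is read from the 9 against that share, because the 7 genes that passed the filter only through normoxic differentiation medium were bound to be low in the other 3 groups. Of all interaction calls 65.5% were positive, or 47.3% when rescaled by the median of ratios and 53.6% by the upper quartile. The fitted interactions ran from -2.94 ± 0.12 for Mybpc2 (limma adjusted p 6.76e-06) to -8.21 ± 0.25 for Mybph (adjusted p 2.91e-06). Myom2, which rose at both oxygen levels, had an interaction of -6.87 ± 0.15 (adjusted p 1.96e-06), and Ttn one of -4.83 ± 0.18 (adjusted p 5.07e-06).

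A list of 37 other genes of the sarcomere, which connect to these proteins as paralogs, ligands, chaperones or anchors, was followed in the same fits. Of these 33 were tested, 18 of them through normoxic differentiation medium alone. At 21% oxygen 28 rose, 2 fell and 3 did not pass, where 25.5% of all tested genes were called higher and 41% lower. The median fitted change was 4.34 for the list and -0.20 for all tested genes, and the 18 genes that passed through that group alone had to differ. Csrp3, a LIM protein of the Z-disc, had the largest rise (8.26 ± 0.18, limma adjusted p 2.9e-07), followed by the actin filament nucleator Lmod2 (7.23 ± 0.11, adjusted p 1.82e-07). Capn3, the muscle calpain that binds titin, fell (-0.99 ± 0.15, adjusted p 0.000993), and so did Lasp1, a nebulin family member of non-muscle cells as well (-1.89 ± 0.15, adjusted p 5.32e-05). The 3 that did not pass were Tmod4, Fhl2 and Nbr1.

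At 2% oxygen 3 of the 33 rose (Klhl41, Ankrd2 and Actn3), 4 fell (Tmod1, Capn3, Fhl1 and Flnc) and 26 did not pass. Of all tested genes 23.3% were called higher and 17.6% lower. The median fitted change was 0.06 for the list and 0.07 for all tested genes. The 18 genes that passed through normoxic differentiation medium alone averaged under 1 FPKM in both hypoxic groups, which held their fitted changes small. Counts and median are therefore not read against the background. Klhl41, a kelch protein that stabilises nebulin, rose (0.64 ± 0.12, limma adjusted p 0.00676), and the titin-binding repeat protein gene Ankrd1 had the largest positive change of the list but did not pass (0.82 ± 0.36, adjusted p 0.115). Capn3 (-1.58 ± 0.15, adjusted p 0.000655) and the LIM protein gene Fhl1 (-1.20 ± 0.18, adjusted p 0.00319) fell. The count of 3 moved to 6 without replicate A of hypoxic differentiation medium, was 0 without replicate B of hypoxic growth medium, and was 1 without any 1 of the other growth medium or normoxic differentiation libraries.

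In growth medium 10 of the 33 were lower and 0 higher in hypoxia by limma, where 28% of all tested genes were called lower and 13.5% higher. The median fitted change was -0.20 for the list and -0.14 for all tested genes. The 18 genes that passed through normoxic differentiation medium alone averaged under 1 FPKM in both growth groups, which held their fitted changes small. Counts and median are therefore not read against the background. The list ran from Actn3, the fast alpha-actinin (-3.28 ± 0.19, limma adjusted p 7.93e-05), and the titin-binding ligase gene Trim55 (-2.02 ± 0.10, adjusted p 5.32e-05) at the low end to Capn3 (0.41 ± 0.15, adjusted p 0.0638) and Klhl40 (0.38 ± 0.13, adjusted p 0.0516) at the high end. At an unadjusted p under 0.05, 2 genes were higher, Capn3 and Klhl40. The count of 10 was 6 without either replicate of hypoxic growth medium. In differentiation medium 29 were lower and 1, Lasp1, was higher in hypoxia (1.78 ± 0.15, adjusted p 6.64e-05), against 27.7% and 37.5% of all tested genes, again with the 18 genes bound to be lower. Csrp3 (-8.11 ± 0.18, adjusted p 2.58e-07) and Lmod2 (-7.20 ± 0.11, adjusted p 1.4e-07) had the largest falls, and Tmod4 (0.31 ± 0.15, adjusted p 0.102) did not pass. The interaction was negative for 29 and positive for 1, again Lasp1 (1.98 ± 0.21, adjusted p 0.000379), against 18.7% and 35.4% of all tested genes and with the same limit, with Csrp3 (-7.98 ± 0.25, adjusted p 2.91e-06) and Lmod2 (-7.11 ± 0.16, adjusted p 1.96e-06) at the low end. Nbr1, a titin kinase-associated scaffold, did not pass (0.09 ± 0.12, adjusted p 0.539).

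**Figure D4:**
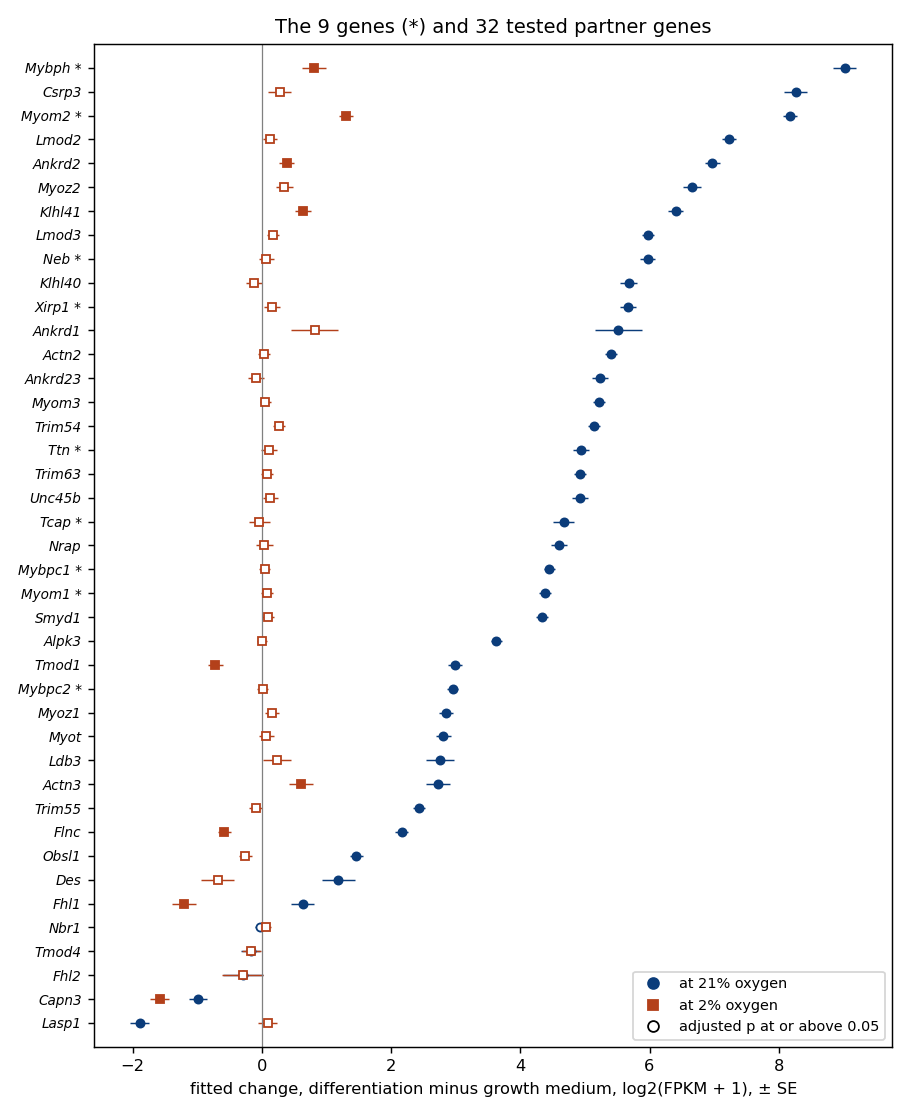
Fitted change from growth to differentiation medium, log2(FPKM + 1) with its standard error, for the 9 genes (starred) and 32 of the 33 tested genes of the wider list, at 21% oxygen (blue circles) and 2% oxygen (red squares), open where the limma adjusted p was at or above 0.05. The blue points run up to 9.02 for Mybph, and the red points lie between -1.58 for Capn3 and 1.30 for Myom2.

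Relatives of the members differed in level. Obsl1, the gene for a cytoskeletal linker protein, was present in every group at 5.39 to 22.5 FPKM and rose 3.01-fold at 21% oxygen (1.46 ± 0.10, adjusted p 3.06e-05). Myom3, the third myomesin, reached 42.3 ± 1.08 FPKM in normoxic differentiation medium, between Myom1 and Myom2, from 0.167 ± 0.00904 FPKM (5.22 ± 0.09, adjusted p 1.82e-07). The nebulin-related anchoring protein gene Nrap went from 0.813 ± 0.132 to 42.9 ± 2.01 FPKM (4.6 ± 0.13, adjusted p 6.81e-07).

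The other relatives, Mybpc3, Nebl and Xirp2, stayed under 1 FPKM and were not tested, as was Cmya5. Mybpc3, the cardiac myosin binding protein C, was at most 0.069 FPKM in any library. Nebl, the gene for nebulette of cardiac Z-discs, was at most 0.0862 FPKM. Xirp2, the paralog of xin, was 0.912 and 0.987 FPKM in normoxic differentiation medium and at most 0.0285 FPKM elsewhere, just under the filter of 1 FPKM. Its ratio of means was 38.3 for normoxic differentiation over normoxic growth medium and 70.8 over hypoxic differentiation medium, with no overlap of libraries and no test.

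Among genes outside the 9, the profile most like the members' was sought as the smallest Euclidean distance between centred log2(FPKM + 1) values over the 8 libraries. The 5 nearest to the median profile of the members were Igfn1 (distance 0.268), Hrc (0.301), Galnt6 (0.312), Atcayos (0.314) and Tac4 (0.317). Igfn1 was 35.2 ± 1.25 FPKM in normoxic differentiation medium and under 0.02 FPKM on average in the other groups. Hrc, the histidine-rich calcium-binding protein of the sarcoplasmic reticulum, went from 0.279 ± 0.000644 to 34.6 ± 2.93 FPKM at 21% oxygen and from 0.0333 ± 0.0145 to 0.131 ± 0.075 FPKM at 2% oxygen. By the same measure Ttn lay 0.146 from the members' median profile, Mybpc1 0.797, Tcap 0.831, Xirp1 0.901, Myom1 1.0 and Neb 1.16. Mybpc2 lay at 2.66, Myom2 at 3.84 and Mybph at 5.29. Every member but Ttn was thus farther from that profile than the 5 outside genes. The distance also weighs the size of the change, so genes with a like pattern at another level lie apart.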

How the data were processed

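The authors' deposited table gives 1 FPKM column for each of the 8 RNA-seq libraries, each tied by its name to 1 sample title, with 0 columns left unmatched. The submitters' processing notes name STAR 2.5.1b, Cufflinks 2.2.1 and the build mm9 for these samples; annotation, use of strand and any scaling between libraries are not given in the sources used here. Libraries were stranded total RNA, per the labels' protocols. The values are not whole numbers, so no count test was run. The H3K27me3 and input libraries were not analysed here. The test was limma 3.58.1 (R 4.3.3) with an intensity trend on log2(FPKM + 1), over the 12389 genes whose group mean reached 1 FPKM in any group. It had 4 group means, 4 residual and 2.61 prior degrees of freedom, 5 two-sided contrasts and Benjamini-Hochberg adjustment within each contrast at a threshold of 0.05; the fit was tested on simulated data. SE is the moderated standard error. Relative depth came from the commonest ratio of values under 0.5 FPKM between libraries, and the absolute step from 6 olfactory receptor genes with RefSeq lengths. Levels are compared with 2 libraries a group. The p-values set each difference against a spread pooled over the 4 groups and moderated toward the intensity trend of all tested genes. Members, the list of related genes and marker lists were chosen with earlier results of these data known. The genes named are the 9 members, 6 relatives of them (1 further gene of the list is counted but not reported here), the 2 list genes with the highest and the 2 with the lowest change in each contrast, and the 5 profiles nearest the members' median; Ankrd2, Tmod1, Flnc, Fhl2 and Cmya5 were named after their values were seen, to complete small counts.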

Additional observations from a re-analysis of the deposited data

Results flagged for a closer look

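The change on differentiation differed between 2% and 21% oxygen by the interaction test in limma (adjusted over 12389 genes) for each of the 9 genes, with 2 libraries a group. The differences were -4.83 for Ttn, -5.90 for Neb, -4.29 for Myom1, -6.87 for Myom2, -4.40 for Mybpc1, -2.94 for Mybpc2, -8.21 for Mybph, -4.71 for Tcap and -5.51 for Xirp1 on the log2(FPKM + 1) scale. The adjusted p-values ran from 1.96e-06 (Myom2) to 1.81e-05 (Tcap). Of the 9 genes, 7 passed the filter of 1 FPKM only through normoxic differentiation medium, the group where they are high. A difference of this direction was therefore largely fixed by the filter for those 7, and their p-values are given as a description. Myom2 and Mybph also reached 1 FPKM in another group.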

How the results depend on the processing

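Every alternative run kept the direction of all 9 genes for differentiation at 21% oxygen (16 settings a gene) and for hypoxia in differentiation medium (16 settings). The same held for the interaction (15 settings), and the calls held as well in the runs that left out no single library. Of the 9 genes, 7 passed the filter of 1 FPKM only through normoxic differentiation medium. Their direction was therefore largely fixed in advance, and its stability is given as a description. At 2% oxygen the 2 genes called higher became 5 with a pseudocount of 0.01 and 1 with only the libraries compared, and 1 to 2 when 1 library was left out. In growth medium the 2 called lower in hypoxia became 5 with a pseudocount of 0.1, 6 with 0.01 and 5 with only the libraries compared, and 1 to 2 when 1 library was left out. Uncalled changes near 0 turned sign for Tcap at 2% oxygen (0.08 without replicate A of hypoxic growth medium; range -0.22 to 0.14 over single libraries left out) and for Myom1 in growth medium (-0.013 without replicate B of normoxic growth medium; range -0.018 to 0.060). Of the wider list, the 3 called higher at 2% oxygen became 6 (pseudocount 0.1), 7 (0.01), 1 (no filter) and 1 (replicate block), and ranged from 0 to 6 when 1 library was left out. The 4 called lower ranged from 4 to 7. The 0 called higher with hypoxia in growth medium became 1 (pseudocount 0.1), 2 (0.01), 2 (median-of-ratios), 2 (upper quartile) and 2 (only the libraries compared), and ranged from 0 to 2 when 1 library was left out, while the 10 lower ranged from 6 to 13. The 1 called higher with hypoxia in differentiation medium became 2 with the replicate block, and it and the 1 positive interaction ranged from 1 to 2 when 1 library was left out. Where leaving out a library leaves a group with 1 sample, that sample is assumed to vary like the others. The share of all tested genes called under each alternative setting is not given here. The counts of the members and of the wider list under those settings are therefore not read against a background. The cause of the shifts in these counts was not tested.

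No shared effect of the letters A and B was seen, as deviations of the same letter correlated between groups with r from -0.166 to 0.042. Whether a letter names a common culture or batch cannot be told from these correlations. With the replicate block the members called were 9, 2, 2, 9 and 9 in the 5 contrasts, as without it. Values of 1 FPKM or less rest on few fragments for short transcripts such as Tcap, and the lengths behind the other members are not in the table, so their fragment counts are not given.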
